A study of Mus musculus with 16 samples.

Results

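The mitochondrial genome of the mouse contributed 37 of the 41388 gene rows in each library, taken by the chromosome label MT: 13 mRNAs, 2 rRNAs and 22 tRNAs. All 37 had the coordinates of the GENCODE M21 annotation on GRCm38. Their transcripts were counted in 16 RNA sequencing libraries of primary cortical neurons, prepared from Swiss Webster embryos at embryonic day 16. The neurons received 2 lentiviruses on day 5 in vitro (DIV 5), and RNA was taken at DIV 10 and depleted of ribosomal RNA with Ribo-Zero. Each of the 4 groups held 4 libraries (n = 4). The first group carried Htt-25Q exon1, the wild-type glutamine tract of huntingtin, with a luciferase shRNA (25Q control). The second carried Htt-72Q exon1, a mutant tract of the kind found in Huntington disease, with the same luciferase shRNA (72Q control). The other two carried Htt-72Q exon1 with Twist1 shRNA #1 or Twist1 shRNA #2. Every group, controls included, was therefore transduced with an exon 1 fragment and a hairpin, and no untransduced neurons were analysed here. The expressed protein was an exon 1 fragment driven by a virus and not full-length huntingtin, and the cells were embryonic. Each experiment, labelled exp107, exp108, exp109a or exp109b, held 1 library of each group. The labels exp109a and exp109b share a number, and it is not given whether they are 2 separate experiments. They are counted as 2 here. No other label tells if the 4 libraries of a group came from different cultures, and p-values here therefore describe library-to-library spread, which may be technical.

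Mitochondrial DNA is a small circle that carries genes for the 2 rRNAs of the mitochondrial ribosome, for a minimal set of tRNAs, and for core subunits of the respiratory chain and of ATP synthase. Each strand is transcribed as a long precursor, which is cut mainly at the tRNAs that punctuate it, and the released mRNAs and rRNAs then differ in abundance through their own stability. All other proteins of the organelle, including the polymerase that copies the circle, come from nuclear genes. Neurons depend heavily on respiration, and altered mitochondrial function is a long-studied feature of Huntington disease models.

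Library totals ranged from 15814525 to 19533034 counts, and the 37 rows together held 7940346 counts. Twist1, the target of the hairpins, stood at 0 to 0.522 CPM in 25Q control, 3.25 to 5.24 CPM in 72Q control, 0.895 to 1.90 CPM with shRNA 1 and 1.38 to 2.36 CPM with shRNA 2, so every library of either Twist1 shRNA lay below every 72Q control library. All 10 neuron markers were present at 1 CPM or more on average in every group, and their summed level was 7021 to 8006 CPM in 25Q control, 4787 to 5674 CPM in 72Q control, 5317 to 5924 CPM with shRNA 1 and 4981 to 5800 CPM with shRNA 2. The 7 astrocyte markers summed to 1465 to 1897 CPM in 25Q control and 1751 to 2270 CPM in 72Q control. Summed microglia markers were 7.59 to 9.45 CPM in 25Q control and 8.33 to 10.0 CPM in 72Q control. They were 6.94 to 9.04 CPM with shRNA 1 and 13.5 to 13.8 CPM with shRNA 2, and only Aif1 reached 1 CPM on average. Endothelial markers summed to 1.99 to 2.23, 2.18 to 2.53, 2.53 to 3.18 and 3.48 to 3.86 CPM in the same order of groups. Both sums were highest in the shRNA 2 libraries. The 5 blood genes were between 0.41 and 1.51 CPM in sum, with Hbb-bt and Hba-a2 at 0. Of those 5 only Alas2 could be tested, and it rose in 72Q control against 25Q control by 0.88 ± 0.32 on the log2 scale (SE, edgeR adjusted p = 0.0188). In bulk RNA, fewer cells of a type and less RNA per cell cannot be told apart, and the part of these markers in the results that follow was not tested.

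Counts were very uneven along the circle. The 2 rRNAs and 7 mRNAs held nearly all of them, and 13 rows (5 mRNAs and 8 tRNAs) had 0 counts in all 16 libraries, which allows each row up to 3 counts per library. The mRNA rows at 0 were mt-Atp8 and mt-Atp6 of ATP synthase, mt-Co3 of cytochrome c oxidase, and mt-Nd3 and mt-Nd4l of complex I, while mt-Co2 had 3 counts in all, and 0 in 14 libraries. These 6 genes are neighbours. They fill the arc from MT:7013 to MT:10173, and the 5 tRNAs that lie between mt-Co1 and mt-Nd4 were at 0 as well.

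The same arc is where the mitochondrial sequence has a nearly perfect nuclear copy. Of the bases of mt-Co2, 100% lay in an exact match of 50 bases or more to an annotated nuclear transcript, and the values were 99.6% for mt-Atp6, 99.9% for mt-Co3, 98.3% for mt-Nd3 and 99.0% for mt-Nd4l. The matching pseudogenes Gm28661, Gm10925, Gm28437, Gm28438 and Gm10222 lie in a row on the minus strand of chromosome 1, from chr1:24612407 to chr1:24615565 on GRCm38. Aligned to its mitochondrial counterpart, each was 100% identical except Gm28438, which differed from mt-Nd3 at 1 of 345 bases. No annotated nuclear transcript shared 50 bases with mt-Atp8. This row overlaps mt-Atp6 by 43 bases, fewer than the match length, and otherwise faces a gap between 2 of these annotated pseudogenes. Only annotated transcripts were searched, so a nuclear copy in that gap would not have been found.

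The start of the mt-Nd3 row and of its nuclear copy is shown because it holds the only base by which the 5 pairs differed, written in capitals. Positions are counted from the first base of mt-Nd3, and the change is T3C, mitochondrial base first. The stretches are MT:9459-9520 on the plus strand and chr1:24613058-24613119 on the minus strand, from GENCODE M21 transcripts.
mt-Nd3: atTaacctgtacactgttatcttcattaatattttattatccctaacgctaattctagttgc
Gm28438: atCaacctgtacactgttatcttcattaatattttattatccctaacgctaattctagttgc

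Gm28438 was also the nuclear copy with the most counts, 1547 in all and 58 to 121 in each library, followed by Gm13340 with 171 and Gm13341 with 75. In the chromosome 1 row, the copies other than Gm28438 held at most 38 counts each. In total 14 nuclear genes shared such a match, with 1928 counts between them. Sharing also touched rows that had counts. It covered 74.9% of the bases of mt-Co1, 63.6% of mt-Nd4, 24.3% of mt-Nd5, 17.2% of mt-Nd2 and 4.11% of mt-Rnr2, and none of mt-Nd1, mt-Nd6, mt-Cytb or mt-Rnr1. The sources used here do not say how reads with several matches were counted, and the part of that choice was not tested. The rows at 0 are therefore reported as listed at 0, with no statement on the level of these RNAs, and the levels of mt-Co1 and mt-Nd4 are uncertain in the same way. Those of mt-Nd5, mt-Nd2 and mt-Rnr2 are too, over a smaller part of each row.

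**Figure D1:**
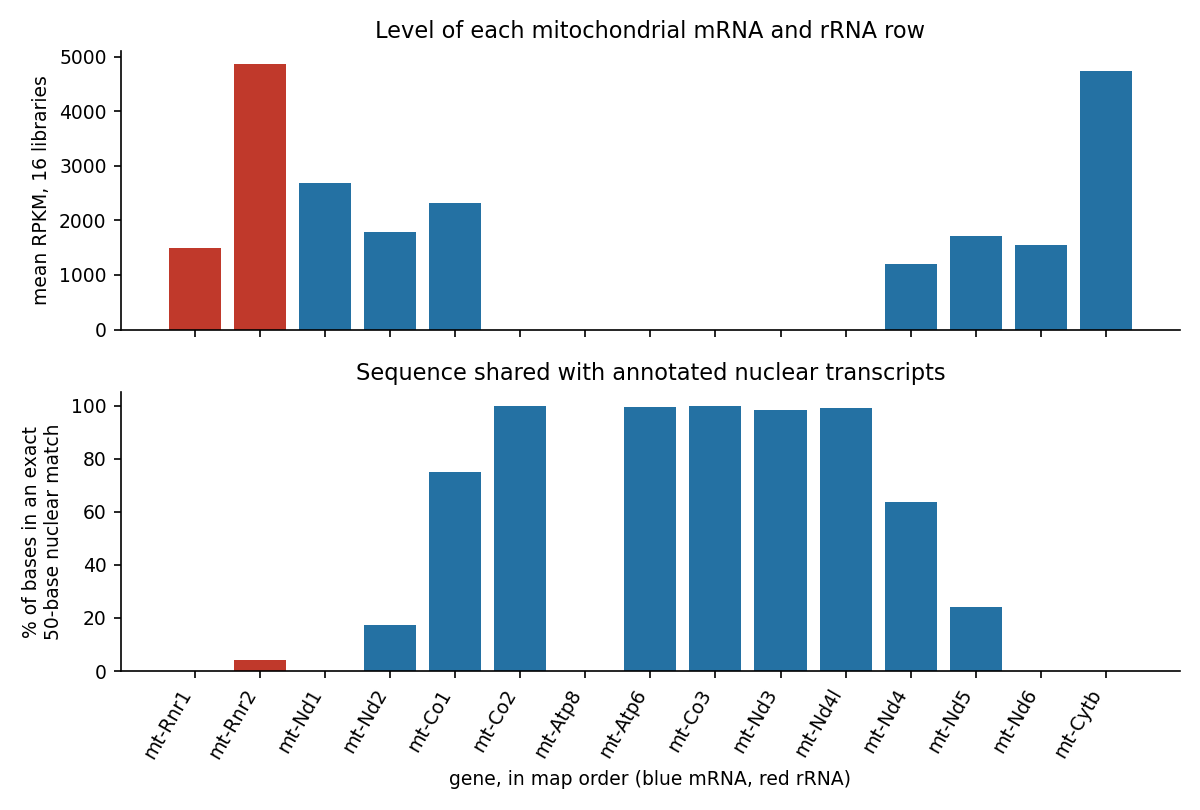
Mean RPKM over 16 libraries of each mitochondrial mRNA and rRNA row (top) and the percent of its bases inside an exact 50-base match to an annotated nuclear transcript (bottom), in map order. The rows from mt-Co2 to mt-Nd4l are at or near 0, and 5 of these 6 are at 98.3% or more in the lower panel.

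Per length, the most abundant rows were mt-Rnr2, the large rRNA, with a mean of 4866 RPKM over the 16 libraries, and mt-Cytb, the cytochrome b of complex III, with 4732 RPKM. These rows took the first and second rank in every library, in either order. The complex I gene mt-Nd1 followed with 2684 RPKM and was the third in all 16 libraries, and mt-Co1, the catalytic subunit of cytochrome c oxidase, was the fourth with 2312 RPKM. The complex I genes mt-Nd2 (1784 RPKM), mt-Nd5 (1714 RPKM) and mt-Nd6 (1541 RPKM) and the small rRNA mt-Rnr1 (1501 RPKM) changed places between libraries. The lowest of the 9, mt-Nd4, had 1192 RPKM and held rank 8 or 9. Each RPKM uses the full listed length of its row. As 74.9% of the bases of mt-Co1 and 63.6% of those of mt-Nd4 lie in nuclear matches, the ranks of both are uncertain. Smaller parts of mt-Nd5 (24.3%) and mt-Nd2 (17.2%) lie in such matches, so their places are uncertain as well. The places of the other rows against these rows are uncertain too. The depletion with Ribo-Zero removed an unknown part of the rRNAs, so a level of mt-Rnr1 or mt-Rnr2 against the mRNAs is a level after depletion.

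Mitochondrial RNA made up a larger share of the library in 72Q control neurons than in 25Q control neurons, and a smaller share again with either Twist1 shRNA. In the order exp107, exp108, exp109a and exp109b, the share of all gene counts was 2.57, 2.41, 2.57 and 2.78% in 25Q control, and 3.16, 3.36, 3.42 and 3.59% in 72Q control. It was 2.63, 2.39, 3.14 and 3.26% with shRNA 1, and 2.10, 2.59, 2.26 and 2.78% with shRNA 2. The highest 25Q control library lay below the lowest 72Q control library, the shRNA 2 libraries also lay below all 72Q control libraries, and the shRNA 1 libraries overlapped with both controls. The 95% Wilson interval of each share reached at most 0.00875 percentage points to either side, which covers counting error only. Since the share is a sum over the members, it is given with no test.

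Within experiments, 72Q control exceeded 25Q control by 0.799 ± 0.151 percentage points (SD, n = 4), higher in 4 of 4. The difference of shRNA 1 from 72Q control was -0.530 ± 0.310 percentage points (SD, n = 4), and that of shRNA 2 from 72Q control was -0.950 ± 0.192 (SD, n = 4), each lower in 4 of 4 experiments. Against 25Q control, shRNA 2 differed by -0.151 ± 0.293 percentage points (SD, n = 4) and was lower in 3 of 4 experiments, so the difference was smaller than its spread. With shRNA 1 the difference from 25Q control was 0.269 ± 0.295 (SD, n = 4), also within its spread. Both Twist1 shRNAs were compared with the same 72Q control libraries.

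The mRNAs and rRNAs contributed differently to these shares. The mRNA share was nearly constant in 25Q control, at 1.89, 1.85, 1.90 and 1.85% in the order of experiments above, and was 2.23, 2.36, 2.25 and 2.27% in 72Q control. With shRNA 1 it was 1.71, 1.61, 1.91 and 2.20%, and with shRNA 2 it was 1.40, 1.83, 1.36 and 1.73%. All 72Q control libraries were above all others, although the exp109b library of shRNA 1 came within 0.0658 percentage points of the control of its experiment. In the shRNA 2 group, every library was below every 25Q control library.

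The rRNA share was more variable, at 0.678, 0.556, 0.670 and 0.934% in 25Q control and 0.928, 0.993, 1.17 and 1.32% in 72Q control. It was 0.910, 0.775, 1.22 and 1.05% with shRNA 1, and 0.700, 0.756, 0.898 and 1.04% with shRNA 2. Here the groups overlapped, but in every experiment 72Q control was above 25Q control, by 0.394 ± 0.106 percentage points (SD, n = 4), and shRNA 2 was below 72Q control, by a nearly equal step each time (difference -0.254 ± 0.0247, SD, n = 4). The tRNA share was 0.00234 to 0.00359% over all libraries.

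The balance of rRNA to mRNA counts differed between the controls as well. Per mRNA count there were 0.359, 0.300, 0.353 and 0.506 rRNA counts in 25Q control and 0.417, 0.421, 0.519 and 0.583 in 72Q control, higher in 4 of 4 experiments with overlapping groups. The mean was 0.532 ± 0.0753 (SD, n = 4) with shRNA 1 and 0.544 ± 0.110 (SD, n = 4) with shRNA 2, against 0.485 ± 0.0805 (SD, n = 4) in 72Q control and 0.380 ± 0.0886 (SD, n = 4) in 25Q control. Nuclear rRNA genes accounted for 0.000146 to 0.000308% of counts, higher in 72Q control than in 25Q control in 4 of 4 experiments. The groups overlapped, and the ratio within experiments was 1.04 to 1.65. These shares rest on few counts per library, so the smaller steps may be counting error. What part Ribo-Zero had in the rRNA values was not tested.

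**Figure D2:**
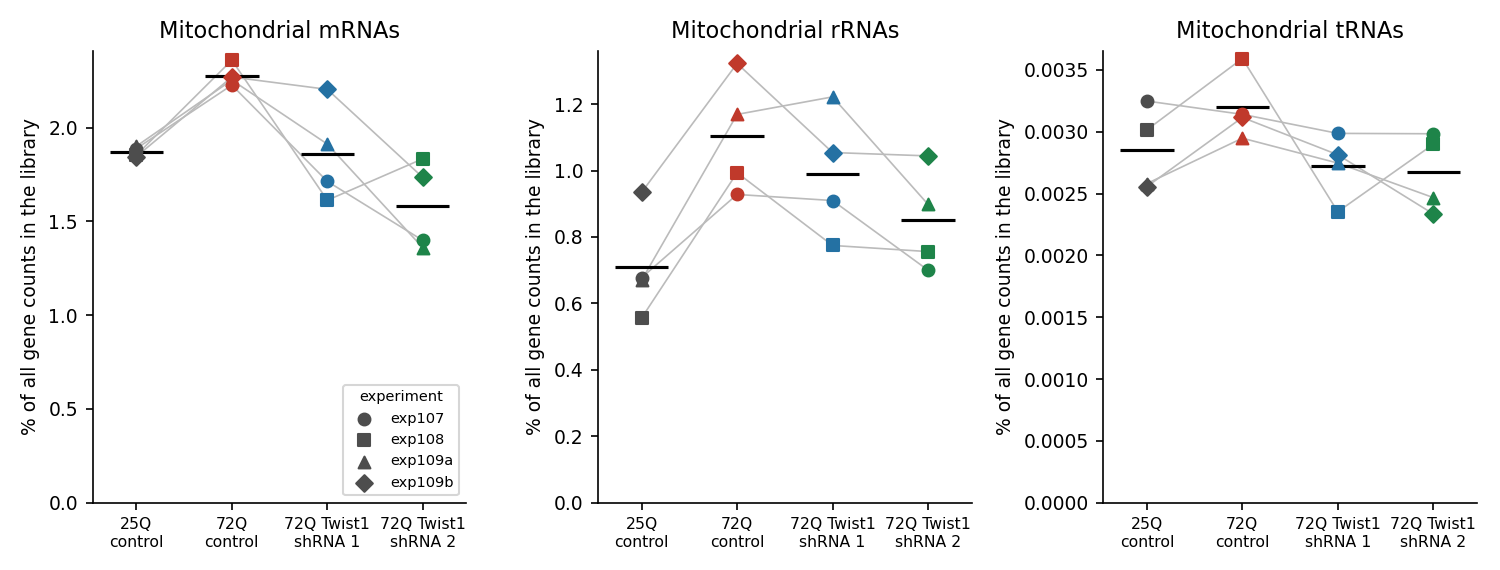
Share of all gene counts that came from mitochondrial mRNAs, rRNAs and tRNAs in each of 16 libraries, with grey lines joining the libraries of 1 experiment and black bars at group means. In the mRNA panel the 72Q control libraries, 2.23 to 2.36%, lie above all others, while the groups overlap in the rRNA panel.

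For single genes, 16 of the 37 rows passed the filter on low counts: 7 mRNAs, 2 rRNAs and 7 tRNAs, each with counts in all 16 libraries. The values below are CPM scaled with TMM factors, which set most genes level between libraries, and the test is the quasi-likelihood test of edgeR with experiment as a block and Benjamini-Hochberg adjustment over 15103 genes, called at an adjusted p under 0.05. Of these factors, those of 25Q control were lowest (0.898 to 0.949) and those of shRNA 2 highest (1.04 to 1.08), with 0.990 to 1.03 in 72Q control and 0.991 to 1.02 with shRNA 1. A difference in share is therefore not the same number as a difference in scaled CPM. Scaling to library totals instead moved the median log2 fold change of all genes from 0.03 to 0.17 between 72Q control and 25Q control, and from 0.01 to 0.22 between shRNA 2 and 25Q control.

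Between 72Q control and 25Q control, both rRNAs, mt-Nd6 and the proline tRNA mt-Tp rose and the glutamine tRNA mt-Tq fell. These 5 of 16 tested members (31.3% of them) compare with 57.1% of all genes called in that comparison, 29.3% higher and 27.8% lower. For the small rRNA mt-Rnr1 the scaled levels were 1260.1, 934, 1236 and 1437 CPM in 25Q control and 1487, 1506, 2061 and 2175 CPM in 72Q control, in the order exp107, exp108, exp109a and exp109b. The groups did not overlap, and the log2 fold change was 0.56 ± 0.11 (SE, edgeR adjusted p = 0.00107). The large rRNA mt-Rnr2 stood at 6285, 4927, 6083 and 8676 CPM against 7891, 8105, 9739 and 10607 CPM. It was higher in 4 of 4 experiments with 1 overlapping library, the exp109b library of 25Q control, and its log2 fold change was 0.50 ± 0.09 (SE, edgeR adjusted p = 3.85e-04).

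All 7 tested mRNAs had a log2 fold change above 0 in this comparison, from 0.06 for mt-Nd1 to 0.26 for mt-Nd6, and each was higher in 4 of 4 experiments, but only mt-Nd6 passed the test. Their median was 0.14, against 0.03 for all genes. The complex I subunit mt-Nd6 is the only mRNA on the minus strand. Its levels were 753, 777, 742 and 851 CPM in 25Q control and 917, 986, 912 and 924 CPM in 72Q control, without overlap, and its log2 fold change was 0.26 ± 0.10 (SE, edgeR adjusted p = 0.0361). That call was lost in 7 of the 8 fits that left out 1 library of either group (adjusted p up to 0.104), the exception being the exp109b library of 72Q control, and in the fit without the experiment block (adjusted p = 0.0510). The overlapping neighbour mt-Nd5 had a value of 0.26 ± 0.11 (SE, edgeR adjusted p = 0.0678), and the 2 rows share 14 bases on opposite strands.

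The number of mRNAs called depended on the processing, while the direction of all 7 did not. With scaling to library totals, 6 of the 7 mRNAs were called higher, all but mt-Nd1, and 11 of the 16 members in all. Of all genes, 9729 of 15103 were called with that scaling, 44.9% higher and 19.6% lower. In a fit of the libraries of these 2 groups alone, 10 members were called, again with 6 mRNAs higher. The share of all genes called in that fit is not given here, so this count has no background. The call of mt-Nd5 was also gained without exp107 of 25Q control (adjusted p = 0.0389) or without exp109b of 72Q control (adjusted p = 0.0474).

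**Figure D3:**
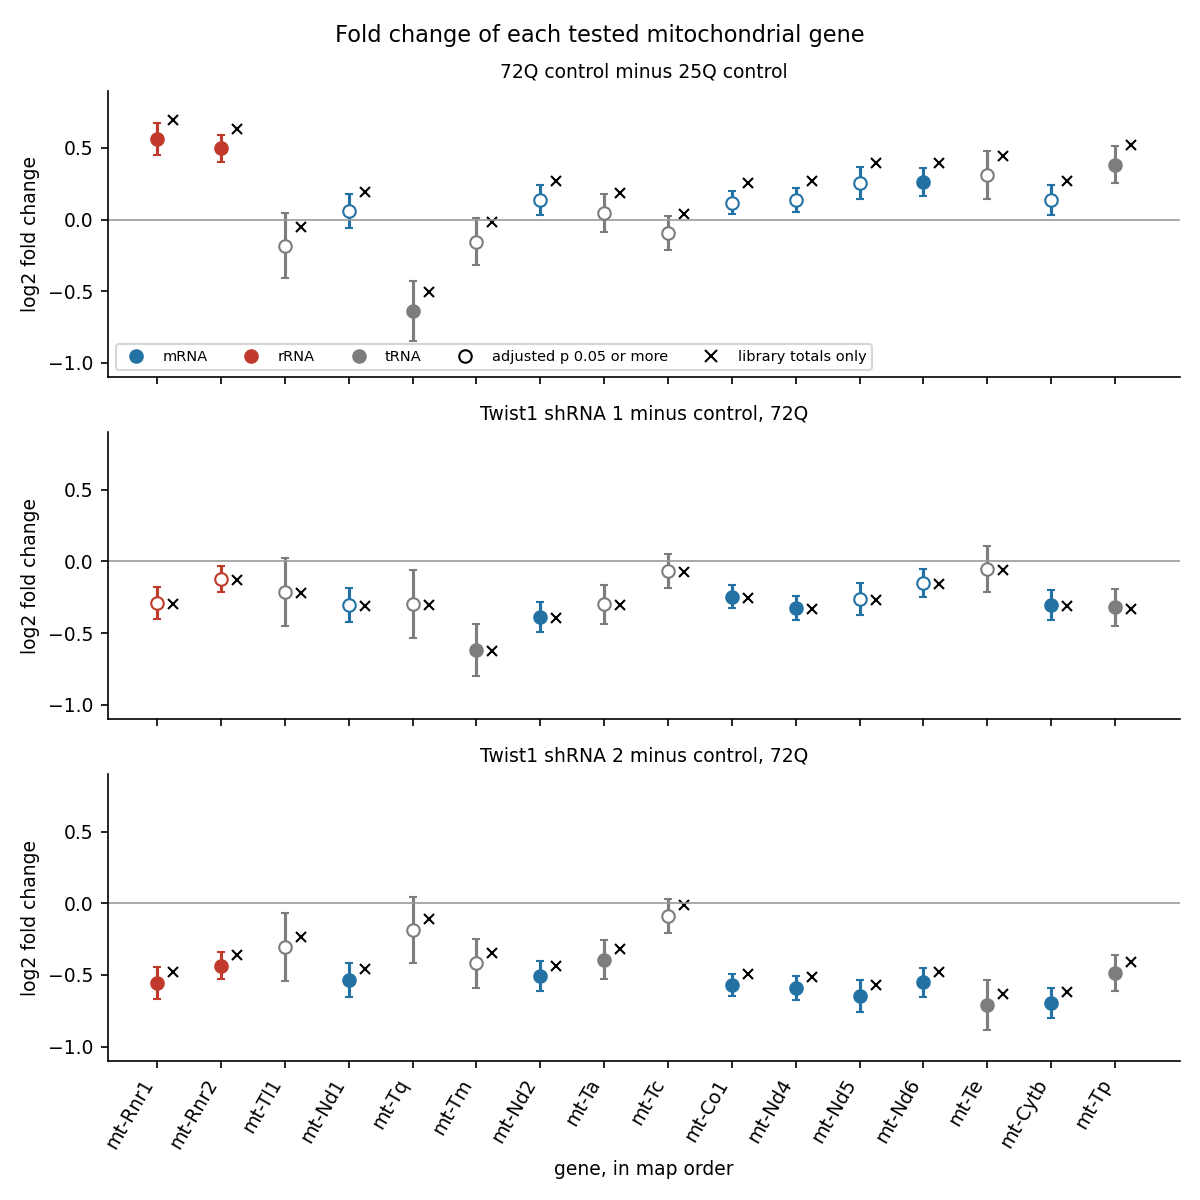
Log2 fold change (± SE) of each of the 16 tested mitochondrial genes in map order for 72Q control against 25Q control and for each Twist1 shRNA against 72Q control, filled where the edgeR adjusted p was under 0.05. Black crosses give the same value when libraries are scaled to their totals. With shRNA 2 the 7 mRNAs lie between -0.69 and -0.51, and in the top panel the 2 rRNAs stand above the mRNAs.

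With Twist1 shRNA 2, all 7 tested mitochondrial mRNAs fell relative to 72Q control, and so did both rRNAs. In all 12 of 16 members fell (75.0%) and none rose, against 41.8% of all genes called in that comparison, 20.2% higher and 21.5% lower. The direction was the same with library totals, where 11 fell, against 15.4% of all genes lower and 29.0% higher. The largest fall among mRNAs was that of mt-Cytb, which stood at 6521, 6560.03, 6686 and 6249 CPM in 72Q control and at 3695, 4611, 3455 and 4375 CPM with shRNA 2. The groups were far apart, and the log2 fold change was -0.69 ± 0.10 (SE, edgeR adjusted p = 1.81e-04).

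The other mRNAs moved by similar amounts. The cytochrome c oxidase gene mt-Co1 was at 4375, 4054, 4136 and 4086 CPM in 72Q control and 2733, 2976, 2394 and 3136 CPM with shRNA 2, with a log2 fold change of -0.57 ± 0.08 (SE, edgeR adjusted p = 1.78e-05). The complex I genes had log2 fold changes of -0.64 (mt-Nd5), -0.59 (mt-Nd4), -0.55 (mt-Nd6), -0.53 (mt-Nd1) and -0.51 (mt-Nd2), with adjusted p between 4.79e-05 and 0.00420. In each of the 7 genes all shRNA 2 libraries were below all 72Q control libraries. The share of all genes with groups separated in this way was not counted, so this has no background. The median of the 7 was -0.57, while the median of all genes was 0.00.

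The rRNAs fell with shRNA 2 by 0.56 ± 0.11 for mt-Rnr1 and by 0.44 ± 0.09 for mt-Rnr2 on the log2 scale (SE, edgeR adjusted p = 0.00176 for each). Both were lower in 4 of 4 experiments, although the groups overlapped. At 1006, 1116, 1249.6 and 1518 CPM, mt-Rnr1 with shRNA 2 overlapped 25Q control, and the difference between those groups was 0.01 ± 0.11 on the log2 scale (SE, edgeR adjusted p = 0.970). Without the experiment block the call of mt-Rnr2 was lost (adjusted p = 0.0774).

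With Twist1 shRNA 1, the members that fell relative to 72Q control were mt-Nd2, mt-Nd4, mt-Cytb and mt-Co1 and the tRNAs mt-Tm and mt-Tp, which are 6 of 16 members (37.5%), against 46.3% of all genes called, 22.7% higher and 23.6% lower. No member rose. The clearest mRNAs were mt-Nd4, at 1955, 1991, 1996 and 1868 CPM in 72Q control and 1485, 1347, 1633 and 1783 CPM with shRNA 1, and mt-Nd2, at 2251, 2269, 2156 and 2112 CPM and 1644, 1423, 1729 and 1924 CPM. In both genes the groups were separate, and the exp109b library of shRNA 1 was the highest of its group. Their log2 fold changes were -0.32 ± 0.08 (SE, edgeR adjusted p = 0.00531) and -0.39 ± 0.11 (SE, edgeR adjusted p = 0.0106).

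That exp109b library stood near or above the control in several genes. In mt-Cytb the shRNA 1 libraries had 4894, 4591, 5385 and 6293 CPM, and in mt-Co1 3382, 2954, 3601 and 4167 CPM. For both genes exp109b exceeded the 72Q control library of that experiment, at 6249 CPM for mt-Cytb and 4086 CPM for mt-Co1. Both genes were therefore lower in the other experiments only. The exp109b library also exceeded that control for mt-Nd5 (3813 against 3791 CPM) and mt-Nd6 (965 against 924 CPM). The log2 fold changes were -0.30 ± 0.10 for mt-Cytb (SE, edgeR adjusted p = 0.0322) and -0.25 ± 0.08 for mt-Co1 (SE, edgeR adjusted p = 0.0166). The call of mt-Cytb was lost without any 1 of 5 libraries (exp107 or exp108 of shRNA 1, exp107, exp108 or exp109a of 72Q control, adjusted p up to 0.0976) and with upper-quartile factors (adjusted p = 0.0547). That of mt-Co1 was lost without exp107 or exp108 of shRNA 1 or exp109a of 72Q control (adjusted p up to 0.0666), and without the experiment block (adjusted p = 0.0649). Leaving out exp109b of shRNA 1 added mt-Nd1 (adjusted p = 0.0321), mt-Nd5 (adjusted p = 0.0363) and the alanine tRNA mt-Ta (adjusted p = 0.0134) to the genes called. Leaving out exp109a of shRNA 1 instead added mt-Nd5 (adjusted p = 0.0488), mt-Nd6 (adjusted p = 0.0440), mt-Rnr1 (adjusted p = 0.00232) and mt-Rnr2 (adjusted p = 0.0207). With all libraries the values of the rRNAs were -0.29 ± 0.11 for mt-Rnr1 (SE, edgeR adjusted p = 0.0501) and -0.12 ± 0.09 for mt-Rnr2 (SE, edgeR adjusted p = 0.309), and without exp107 of 72Q control mt-Rnr1 passed (adjusted p = 0.0404). It also passed, as lower, with DESeq2 size factors in edgeR (adjusted p = 0.0468), with library totals (adjusted p = 0.0486), with mitochondrial genes left out of the scaling (adjusted p = 0.0498), with no filter on low counts (adjusted p = 4.74e-11) and in a fit of the 2 groups alone (adjusted p = 5.06e-04). The mRNA mt-Nd1 passed, as lower, with DESeq2 (adjusted p = 0.0394) and without the experiment block (adjusted p = 0.04235). It passed as well with no filter (adjusted p = 1.30e-13) and in the 2 groups alone (adjusted p = 4.025e-04).

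Compared directly, mitochondrial levels were higher with shRNA 1 than with shRNA 2 in 7 of 16 members (43.8%), namely mt-Co1, mt-Nd4, mt-Nd5, mt-Nd6, mt-Cytb, mt-Rnr2 and the glutamate tRNA mt-Te, and lower in none. The background was 53.2% of all genes called in either direction and 27.3% higher. Among mRNAs the largest difference was 0.40 ± 0.10 on the log2 scale for mt-Nd6 (SE, edgeR adjusted p = 0.00411), which had 769, 721, 918 and 965 CPM with shRNA 1 and 565, 749.9, 544 and 704 CPM with shRNA 2. In exp108 the order was reversed for every mRNA called here, while exp107, exp109a and exp109b had the higher value with shRNA 1. Without the exp108 library of shRNA 2, mt-Nd1, mt-Nd2 and mt-Rnr1 were called as well (adjusted p = 0.00159, 0.0168 and 0.0347). Without the experiment block mt-Rnr2 was no longer called (adjusted p = 0.163), and the call of mt-Nd4 was lost without exp109b of shRNA 1, exp107 of shRNA 2 or exp109a of shRNA 2 (adjusted p up to 0.0665). In a fit of these 2 groups alone, mt-Nd6 (adjusted p = 0.136), mt-Nd5 (adjusted p = 0.114) and mt-Nd4 (adjusted p = 0.0673) were not called, and with library totals mt-Rnr2 (adjusted p = 0.0680) and mt-Nd4 (adjusted p = 0.0924) were not.

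Each shRNA group was also set against 25Q control. With shRNA 2 all 7 mRNAs were below 25Q control, with log2 fold changes from -0.56 for mt-Cytb to -0.29 for mt-Nd6, and with the tRNAs mt-Tq, mt-Tm and mt-Ta this made 10 of 16 members lower (62.5%), against 63.3% of all genes called and 31.8% lower. With scaling to library totals the mRNA values kept their direction, but 3 of the 7 were called lower, and mt-Rnr2 was called higher (log2 fold change 0.27, adjusted p = 0.0271). Of all genes, 19.35% were lower and 50.4% higher with that scaling. The call of mt-Nd6 in this comparison was lost without exp109b of 25Q control, exp109a of shRNA 2 or exp107 of shRNA 2 (adjusted p up to 0.0666), and with upper-quartile scaling (adjusted p = 0.116). That of mt-Ta was lost without exp107 or exp109b of 25Q control or exp108 or exp109b of shRNA 2 (adjusted p up to 0.151), without the experiment block (adjusted p = 0.110), with library totals (adjusted p = 0.379), with upper-quartile factors (adjusted p = 0.116) and with DESeq2 (adjusted p = 0.0503). That of mt-Tm was lost with library totals (adjusted p = 0.0615).

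With shRNA 1 no mRNA passed the test against 25Q control (log2 fold changes from -0.25 to 0.11), although mt-Nd2 and mt-Nd4 had an unadjusted p under 0.05 in edgeR and were called lower by DESeq2 (adjusted p = 0.0465 and 0.0216). Called members were mt-Rnr2, higher by 0.38 ± 0.09 on the log2 scale (SE, edgeR adjusted p = 0.00335), and mt-Tq and mt-Tm, lower. These 3 of 16 (18.8%) compare with 57.4% of all genes. The rRNA call was lost without the experiment block (adjusted p = 0.0917). Leaving out exp109b of shRNA 1 gave calls of mt-Co1, mt-Cytb, mt-Nd2 and mt-Nd4, each lower, with adjusted p of 0.0290, 0.0300, 0.0261 and 0.0109, of mt-Ta, lower (adjusted p = 0.0234), and of mt-Rnr1, higher (adjusted p = 0.00917). Without exp108 of shRNA 1, mt-Nd6 and mt-Te were called higher (adjusted p = 0.0157 and 0.0211). The small rRNA mt-Rnr1 was also called higher without exp107 of 25Q control (adjusted p = 0.00514) and with library totals (adjusted p = 0.009985). So it was with upper-quartile factors (adjusted p = 0.0192), with no filter (adjusted p = 7.66e-11) and in the 2 groups alone (adjusted p = 0.0259).

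Within the counted mRNAs, which are 7 of the 13, the relative amounts of some genes differed between groups. The 6 rows at or near 0 add almost nothing to these percents, and the parts of mt-Co1, mt-Nd4, mt-Nd5 and mt-Nd2 are uncertain as stated above. The minus-strand mRNA mt-Nd6 made up 3.85 ± 0.333% of mRNA counts in 25Q control, 4.15 ± 0.140% in 72Q control, 4.56 ± 0.140% with shRNA 1 and 4.31 ± 0.0937% with shRNA 2 (SD, n = 4 each). The shRNA 1 libraries were above those of the other groups, while the groups of 25Q control and 72Q control overlapped. The mRNA row with the most counts, mt-Cytb, made up 29.1 ± 0.850% in 25Q control and 28.9 ± 0.386% in 72Q control (SD, n = 4 each). It made up 28.6 ± 0.527% with shRNA 1, but 27.2 ± 0.172% with shRNA 2 (SD, n = 4 each). The shRNA 2 libraries, at 27.1 to 27.4%, lay below the other 12, which started at 27.9%. The mt-Nd2 row made up 8.86 to 9.59% with shRNA 1 and 10.0 to 10.9% with shRNA 2, without overlap. For mt-Nd6 the ratio of shRNA 1 to 25Q control within experiments was 1.19 ± 0.125 (SD, n = 4). These shares are described with no test.

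Transfer RNAs were rare in these libraries, with 411 to 625 counts in all 22 rows per library. Mature tRNAs are short and heavily modified, which makes them poor templates for common RNA sequencing libraries, and the counts may include reads of unprocessed precursors. The 8 tRNA genes on the minus strand had 337 to 521 counts per library, while the 14 on the plus strand had 68 to 106. Of the 7 tested, 5 were minus-strand genes, and the order per length was mt-Tc, for cysteine (115 RPKM), mt-Tp, for proline (90.0 RPKM), mt-Ta, for alanine (76.9 RPKM), mt-Te, for glutamate (39.7 RPKM), mt-Tm, for methionine (35.4 RPKM), mt-Tq, for glutamine (23.2 RPKM), and mt-Tl1, for leucine (19.98 RPKM). Of the others, 8 were at 0 and 7 had counts but at most 13 in any library. The sources used here do not say whether the counting used strand, so reads of a minus-strand tRNA and of the opposite strand cannot be told apart.

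The sequences of the 5 tRNAs called in at least 1 comparison between groups are shown with the anticodon that sets the amino acid of each. The first pair, mt-Tq and mt-Tm, are neighbours on opposite strands. Letters are DNA, 5′ to 3′ on the strand of the gene, from GENCODE M21 on GRCm38, with the anticodon in capitals. Coordinates are MT:3772-3842 (mt-Tq, minus), MT:3845-3913 (mt-Tm, plus), MT:5018-5086 (mt-Ta, minus), MT:14071-14139 (mt-Te, minus) and MT:15356-15422 (mt-Tp, minus).
mt-Tq: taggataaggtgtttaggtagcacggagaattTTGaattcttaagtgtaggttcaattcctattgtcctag
mt-Tm: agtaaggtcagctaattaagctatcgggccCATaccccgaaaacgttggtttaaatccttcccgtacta
mt-Ta: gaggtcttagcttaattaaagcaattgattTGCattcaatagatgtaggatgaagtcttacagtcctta
mt-Te: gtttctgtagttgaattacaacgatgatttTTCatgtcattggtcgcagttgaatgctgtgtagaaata
mt-Tp: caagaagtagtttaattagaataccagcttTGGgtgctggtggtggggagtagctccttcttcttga

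The proline tRNA mt-Tp had 126, 83, 86 and 77 counts in 25Q control and 114, 127, 123 and 155 counts in 72Q control. After scaling it was higher in 72Q control in 3 of 4 experiments, and the log2 fold change was 0.38 ± 0.13 (SE, edgeR adjusted p = 0.0127). That call was lost without exp109b of 25Q control (adjusted p = 0.0638) or exp109b of 72Q control (adjusted p = 0.0762). With shRNA 2 it had 103, 109, 102 and 88 counts, below 72Q control in scaled level in all libraries, with a log2 fold change of -0.49 ± 0.13 (SE, edgeR adjusted p = 0.00267). The fall with shRNA 1 was -0.32 ± 0.13 (SE, edgeR adjusted p = 0.0397). It was lost without any 1 of 5 libraries (exp107, exp108 or exp109b of shRNA 1, exp108 or exp109b of 72Q control, adjusted p up to 0.213), without the experiment block (adjusted p = 0.103), with DESeq2 (adjusted p = 0.0766) and with upper-quartile factors (adjusted p = 0.0557).

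The glutamine tRNA mt-Tq, which lies next to mt-Tm, went the other way in 72Q control. It had 55, 37, 25 and 44 counts in 25Q control and 24, 28, 32 and 26 counts in 72Q control, and the log2 fold change was -0.64 ± 0.21 (SE, edgeR adjusted p = 0.0108). It was lower in 3 of 4 experiments, the groups overlapped, and the call was lost without exp107 of 25Q control (adjusted p = 0.0875) or exp109b of 72Q control (adjusted p = 0.0883). In the shRNA groups it remained at 20 to 31 counts.

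The glutamate tRNA mt-Te lies on the minus strand beside mt-Nd6. It had 49, 68, 58 and 53 counts in 72Q control and 32, 45, 46 and 29 with shRNA 2, and its log2 fold change of -0.71 ± 0.17 (SE, edgeR adjusted p = 0.00125) came with groups that did not overlap in scaled level. With shRNA 1 it had 50, 50, 64 and 55 counts, and it was higher than with shRNA 2 by 0.66 ± 0.17 on the log2 scale (SE, edgeR adjusted p = 0.00197), in 4 of 4 experiments. The methionine tRNA mt-Tm fell with shRNA 1, from 55, 44, 44 and 54 counts to 31, 36, 27 and 34 counts, with a log2 fold change of -0.62 ± 0.18 (SE, edgeR adjusted p = 0.00545) and no overlap in scaled level. With shRNA 2 its value was -0.42 ± 0.17 (SE, edgeR adjusted p = 0.0508).

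The alanine tRNA mt-Ta had 101, 133, 88 and 100 counts in 72Q control and 110, 89, 87 and 64 with shRNA 2, and it fell by 0.39 ± 0.13 on the log2 scale (SE, edgeR adjusted p = 0.0193). That call in the comparison of shRNA 2 with 72Q control was lost without exp109b of shRNA 2 (adjusted p = 0.115), without exp108 of 72Q control (adjusted p = 0.171), with library totals (adjusted p = 0.0540) and without the experiment block (adjusted p = 0.115). For mt-Tc and mt-Tl1 no comparison passed the test. The most abundant tRNA row, mt-Tc, ranged from 92 to 183 counts, with values of -0.18 to 0.02 on the log2 scale over the 6 comparisons.

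**Figure D4:**
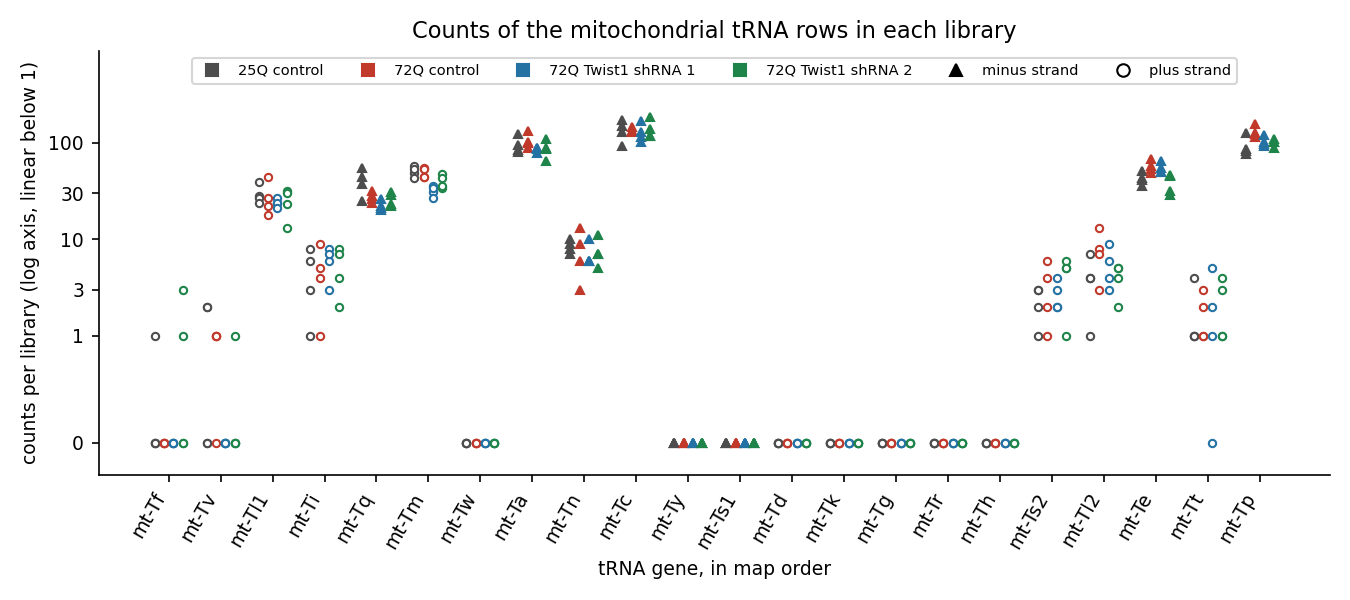
Counts of the 22 mitochondrial tRNA rows in each of 16 libraries on a logarithmic axis that is linear below 1, in map order, with filled triangles for the minus strand and open circles for the plus strand. The highest rows, mt-Tc, mt-Tp and mt-Ta, are on the minus strand, and 8 rows are at 0 in all libraries.

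Nuclear genes that work with these transcripts are described by 5 lists, with TMM scaling. Where library totals give other counts these follow, an alternative added after the data were seen. Their counts are to be read against all genes, of which 29.3% were called higher and 27.8% lower in 72Q control against 25Q control (44.9% and 19.6% with library totals). For shRNA 1 against 72Q control these shares were 22.7% and 23.6% (21.9% and 24.4% with library totals). For shRNA 2 they were 20.2% and 21.5% (29.0% and 15.4% with library totals). Of 75 nuclear subunits of oxidative phosphorylation (OXPHOS), 14 (18.7%) rose and 10 (13.3%) fell between 72Q control and 25Q control, with a median log2 fold change of 0.02 against 0.03 for all genes, while with library totals 44 (58.7%) rose and 1 (1.33%) fell. The highest were Atp5g1, a ring subunit of ATP synthase (0.46 ± 0.08), Uqcrb of complex III (0.32 ± 0.08) and Ndufab1 of complex I (0.32 ± 0.12), and the lowest were Ndufb4 (-0.39 ± 0.12) and Ndufb2 (-0.29 ± 0.09) of complex I and Cyc1, the cytochrome c1 of complex III (-0.31 ± 0.05, SE). With shRNA 2, where all 7 tested mitochondrial mRNAs fell, 21 of the 75 rose and 4 (5.33%) fell, with a median of 0.07, and with library totals 36 rose and 2 fell. With shRNA 1, 28 (37.3%) rose and 4 (5.33%) fell, also with a median of 0.07, and with library totals 25 rose and 4 fell. The medians of all genes were 0.00 and -0.01 in these comparisons.

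Among 37 genes that copy, transcribe, process or stabilise mitochondrial RNA and DNA, 11 (29.7%) rose and 9 (24.3%) fell in 72Q control against 25Q control, near the 29.3% and 27.8% of all genes, and 16 rose and 5 fell with library totals. Lrpprc, which binds and stabilises mitochondrial mRNAs, fell by 0.45 ± 0.05 on the log2 scale (SE), and Top1mt, the mitochondrial topoisomerase, had -0.66 ± 0.11. Also lower was 1110008L16Rik (-0.55 ± 0.11). Polg2, an accessory subunit of the mitochondrial DNA polymerase, rose by 0.68 ± 0.14, Mterf4, a partner in ribosome assembly, by 0.54 ± 0.09, and Ssbp1, the single-stranded DNA binding protein, by 0.47 ± 0.11. With shRNA 1 the counts were 5 higher (13.5%) and 7 lower (18.9%), or 4 and 9 with library totals. With shRNA 2 they were 6 (16.2%) and 4 (10.8%), or 12 and 1 with library totals.

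The proteins of the mitochondrial ribosome, which assemble on the rRNAs described above, gave 18 higher (24.0%) and 8 lower (10.7%) of 75 tested in 72Q control against 25Q control, with a median log2 fold change of 0.08, and 45 higher and 3 lower with library totals. The highest were Mrpl27 (0.54 ± 0.10), Mrps34 (0.53 ± 0.09) and Mrpl45 (0.49 ± 0.07), and the lowest Mrps18b (-0.38 ± 0.12), Mrps15 (-0.36 ± 0.06) and Mrps6 (-0.32 ± 0.08, SE). For shRNA 1 there were 3 higher (4.00%) and 18 lower (24.0%), where 23.6% of all genes were lower, or 2 and 18 with library totals. For shRNA 2 there were 18 higher (24.0%) and 1 lower (1.33%), where 20.2% of all genes were higher, or 29 and 0 with library totals. The difference between the shRNAs in this list was not tested. Against the rRNAs, which fell with shRNA 2, the ribosomal protein genes had a median of 0.09 in that comparison.

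Mitochondrial aminoacyl-tRNA synthetases and their partners, which charge the tRNAs, gave 9 of 20 lower (45.0%) and 3 higher (15.0%) in 72Q control against 25Q control, where 27.8% and 29.3% of all genes were, with a median of -0.13 that turned to 0.01 with library totals, where 6 were lower and 4 higher. The proline enzyme Pars2 fell by 0.43 ± 0.10 on the log2 scale (SE) while its tRNA row mt-Tp rose. Vars2, for valine, had -0.54 ± 0.06 and Tars2, for threonine, -0.42 ± 0.07. Higher were Nars2, for asparagine (0.28 ± 0.10), Iars2, for isoleucine (0.18 ± 0.05), and Gatc (0.18 ± 0.06), a subunit of the amidotransferase that completes charging of the glutamine tRNA. With shRNA 1, 9 (45.0%) rose and 2 fell, where 22.7% of all genes were higher. With shRNA 2, 10 of the 20 rose and 1 fell, where 20.2% of all genes were higher, or 12 and 1 with library totals.

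Of 13 nuclear genes used as a readout of mitochondrial content, such as porins, import receptors and matrix chaperones, 11 did not pass the test between 72Q control and 25Q control, and the chaperones Hspd1 (0.23 ± 0.04) and Hspa9 (0.10 ± 0.04, SE) rose, while with library totals 9 of the 13 rose. With shRNA 1, 4 (30.8%) rose and 2 (15.4%) fell, against 22.7% and 23.6% of all genes, or 4 and 3 with library totals. With shRNA 2, 4 (30.8%) rose and 1 (7.69%) fell, against 20.2% and 21.5%, or 4 and 0 with library totals.

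Markers of cell types moved in the same comparisons, with TMM scaling. Of all genes, 29.3% were called higher and 27.8% lower in 72Q control against 25Q control. For shRNA 2 against 72Q control these shares were 20.2% and 21.5%, and for shRNA 1 against 72Q control 22.7% and 23.6%. Calls of the markers with library totals are not given here. All 10 neuron markers fell in 72Q control against 25Q control, with a median log2 fold change of -0.84, and 4 of 7 astrocyte and 4 of 5 dividing-progenitor markers rose. With shRNA 2 against 72Q control, where the mitochondrial mRNAs fell, 6 of 8 markers of the oligodendrocyte lineage fell, with a median of -0.41, as did 4 of 7 astrocyte markers, 3 of 5 of dividing progenitors and 4 of 10 of neurons, while 2 of the 10 neuron markers rose. The summed level of the oligodendrocyte lineage was 1044 to 1233 CPM in 72Q control and 807 to 936 CPM with shRNA 2. Summed microglia markers were 8.33 to 10.0 CPM in 72Q control and 13.5 to 13.8 CPM with shRNA 2. Endothelial markers were 2.18 to 2.53 CPM and 3.48 to 3.86 CPM in these groups. With shRNA 1, 5 of the 8 oligodendrocyte-lineage markers fell, and 3 of 10 neuron markers rose and 1 fell. The part of these shifts in the mitochondrial values was not tested.

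**Figure D5:**
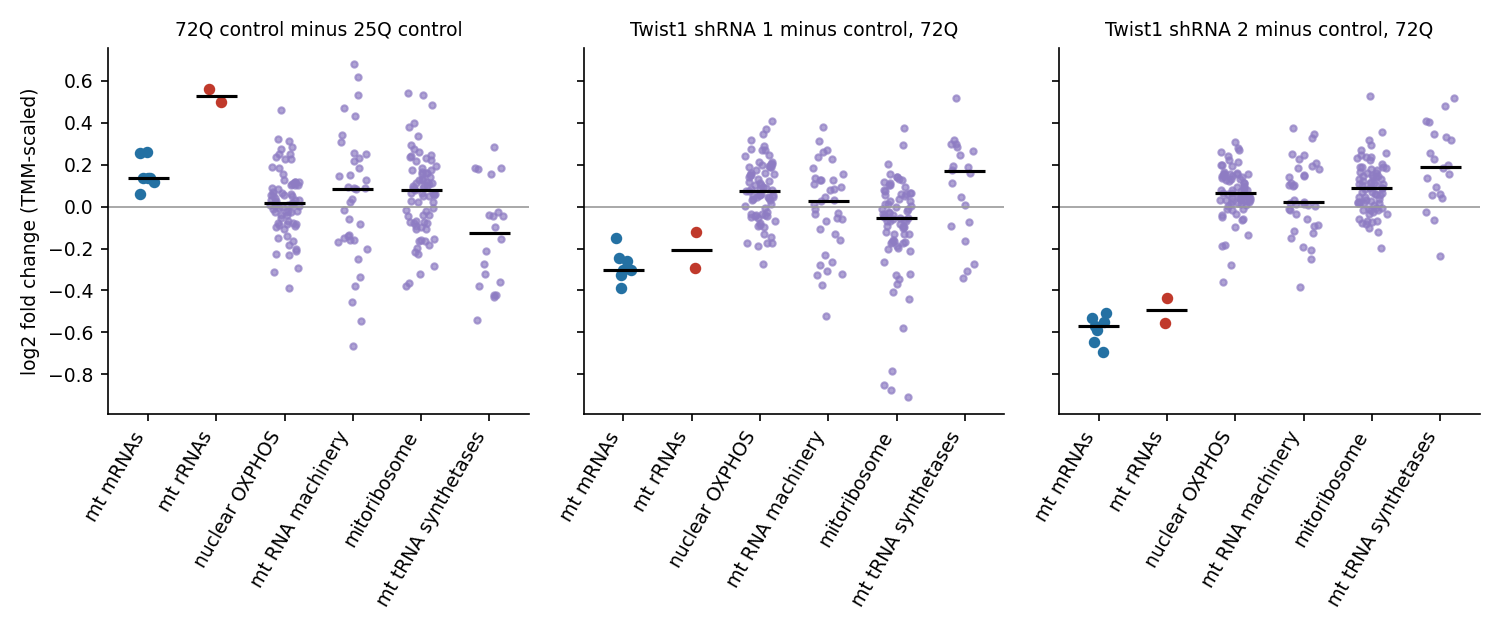
Log2 fold changes (TMM-scaled) of the tested mitochondrial mRNAs and rRNAs beside 4 lists of nuclear genes for mitochondrial proteins, with 1 point per gene and a bar at each median, for 72Q control against 25Q control and each Twist1 shRNA against 72Q control. With shRNA 2 the mitochondrial mRNAs have a median of -0.57 and the nuclear OXPHOS subunits 0.07.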

How the data were processed

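RNA was measured as gene counts in 16 libraries of 4 groups. Reads were aligned with STAR 2.0.4b and counted with featureCounts 1.45 of Subread on GRCm38, per the submitters' processing notes. Whether the counting used strand, what it did with multi-mapping reads and which annotation it used were not given in the sources used here. The authors deposited raw counts per Ensembl gene, with no normalization, and these were the input of every test. The deposited CPM values equal each count over the total of its library, on the CPM scale, and the deposited RPKM values equal that CPM per kilobase of the listed length. Deposited CPM entered no test, and RPKM served only to compare levels between genes.

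Counts were filtered with filterByExpr and tested with edgeR 4.0.16 (R 4.3.3): TMM factors, glmQLFit with robust estimation and glmQLFTest, group and experiment as terms, all 16 libraries in 1 fit, Benjamini-Hochberg adjustment over 15103 genes, threshold 0.05. The common biological coefficient of variation was 5.24%. Every adjusted p for a gene is of this kind unless another setting is named, and a gene is said to rise or fall only where it passed. SE is the log2 fold change divided by the square root of the F statistic. The experiment served as the block, because deviations from group means correlated within every experiment (0.330 to 0.715 over 13605 genes) for each pair of groups. The title number matched the experiment in 1 of 4 libraries of 25Q control. Replicate pairs differed by 2.85 to 22.6 times sampling noise, so none was counted as a duplicate library. The exp109a and exp109b libraries were the closest pair in 25Q control (2.85), shRNA 1 (4.81) and shRNA 2 (6.38), but not in 72Q control (9.46). These values cannot tell whether such a pair came from 1 culture. The procedure was tested on counts simulated for 15103 genes with a uniform spread and no experiment effect. In 72Q control against 25Q control it called 53 of 100 genes changed 1.25-fold in the right direction. It called 90 of 100 changed 2-fold, with 8 false calls. A gene that did not pass may therefore still differ.

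Shared sequence was found as exact 50-base matches between GENCODE M21 transcripts. Symbols came from the same release for 40340 of 41388 identifiers (97.5%). All mitochondrial mRNAs and rRNAs, and tRNAs that passed the filter, are named, as are the 3 highest and 3 lowest called members of each nuclear list in 72Q control against 25Q control with a mean of at least 1 CPM. The members and lists were chosen with earlier results of these data known. Shares carry 95% Wilson intervals, and a count of 0 allows up to 3 counts, for counting error only. Alternatives were DESeq2 1.42.0, other scalings, no filter, no block, the compared groups only and leaving out each library.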

Additional observations from a re-analysis of the deposited data

Results flagged for a closer look

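In 3 of 88 sets of 4 libraries, 1 library stood far from the others of its group, where chance flags about 1 in 20 such sets. In 72Q control, mt-Nd6 was highest in the exp108 library, at 986 CPM after scaling against 912 to 924 CPM in the other 3, a gap of 0.835 of the group's range. With Twist1 shRNA 2, mt-Tc was highest in the exp107 library, at 9.82 CPM against 6.25 to 6.57 CPM, a gap of 0.912 of the range. In 25Q control, mt-Tp was highest in the exp107 library, at 7.29 CPM against 4.89 to 5.27 CPM, a gap of 0.84 of the range.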

How the results depend on the processing

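With scaling to library totals, 11 members were called in 72Q control against 25Q control, where 5 were called with TMM, and 5 in shRNA 2 against 25Q control, where 10 were. Of all 15103 genes, 8628 and 9556 were called in these comparisons with TMM, and 9729 and 10534 with library totals. That scaling also moved the share of higher calls among all genes from 51.4% to 69.6% in the first of these comparisons, from 49.7% to 72.3% in the second, from 48.9% to 66.5% for shRNA 1 against 25Q control, from 48.5% to 65.3% for shRNA 2 against 72Q control and from 51.3% to 36.5% between the shRNAs. Upper-quartile factors gave 61.2% for shRNA 1 and 61.5% for shRNA 2 against 25Q control. With no filter on low counts, 10 members were called in 72Q control against 25Q control, 11 in shRNA 1 against 72Q control (6 with the filter) and 10 in shRNA 1 against 25Q control (3 with the filter), where DESeq2 called 5. A fit of the 2 compared groups only called 10 in 72Q control against 25Q control, 7 in shRNA 1 against 25Q control and 4 between the shRNAs (7 with all groups). Leaving out 1 library gave 3 to 4 calls in 72Q control against 25Q control, 3 to 10 in shRNA 1 and 11 to 13 in shRNA 2 against 72Q control, 6 to 10 between the shRNAs, and 3 to 9 and 8 to 11 for shRNA 1 and shRNA 2 against 25Q control. With no replicate block the 6 counts, in the same order, were 4, 5, 10, 6, 2 and 9, against 5, 6, 12, 7, 3 and 10. For no filter, DESeq2, the 2 groups only, left-out libraries and no block, the share of all genes called is not given here. Those counts of members therefore have no background. Without the rRNAs the differences in share were 0.405 percentage points for 72Q control against 25Q control, -0.696 for shRNA 2 against 72Q control and -0.0118 for shRNA 1 against 25Q control, the last of which had been 0.269. Leaving out 1 library moved the differences in share between 0.751 and 0.869, -0.611 and -0.385, -1.01 and -0.878, 0.267 and 0.627, 0.171 and 0.366, and -0.261 and -0.0452 percentage points, in the order of the counts. The causes were not tested. Counts of tRNA rows, 13 to 183 per library among those tested, limit what could be seen there, and the rows listed at 0 give no level.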
